A study of Mus musculus with 16 samples.

Results

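Amino acid transporters and aminoacyl-tRNA synthetases were examined as 2 separate gene families in cultured mouse cortical neurons. Members were taken by symbol from the array's annotation: any gene of solute carrier families 1, 3, 6, 7, 36, 38 or 43 whose symbol carries the letter a and a number, and any synthetase symbol made of a 1-letter amino acid code and "ars", with or without a final 1 or 2. This gave 58 transporter genes on 118 probe sets and 31 synthetase genes on 59 probe sets, 89 genes of the 18193 on the array, with 1 probe set, the brightest on average, standing for each gene. After the dimmest genes were left out, 43 of the 58 transporters and all 31 synthetases were among the 13915 genes tested. The 15 transporters not tested were Slc1a7, Slc38a5, Slc43a3, Slc6a3, Slc6a4, Slc6a5, Slc6a12, Slc6a13, Slc6a14, Slc6a16, Slc6a18, Slc7a7, Slc7a12, Slc7a13 and Slc7a15. The solute carrier 6 family also holds carriers of monoamines and creatine, which the symbols bring in. The symbol rule leaves out Eprs, Farsa, Farsb and Pars2, which are described with the related genes.

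The cells came from cortices of C57BL/6 embryos at day 16.5 and were given lentivirus on day 5 in culture, for 6 h, with 6 µg/ml polybrene. The virus carried an shRNA against c-Fos, the product of the activity-induced gene Fos, or one that targets firefly luciferase as the control, so both arms were infected. The neurons, silenced on day 7, were then held in KCl, which depolarises them, for 0, 1, 3 or 6 h, and total RNA was hybridised to 16 Affymetrix mouse 430 2.0 arrays, 2 for each of the 8 groups. The groups were c-Fos shRNA at 0, 1, 3 and 6 h and control shRNA at 0, 1, 3 and 6 h. Arrays of a group are labelled as biological replicates, without saying that they came from separate dissections. A p-value here therefore sets a difference against the spread of these particular arrays. In the main fit that spread includes any shift shared by arrays of the same replicate number. Only 1 shRNA sequence per arm is named, and the RNA is that of the whole culture.

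Amino acid transporters move amino acids and related molecules across the plasma membrane, the lysosome and synaptic vesicles. In cortex they clear glutamate, GABA and glycine from around synapses, supply neurons with glutamine, and bring in the essential and cationic amino acids used for protein synthesis. Aminoacyl-tRNA synthetases join each amino acid to its tRNA. Most amino acids have a nuclear gene for the cytosolic enzyme and another, whose symbol ends in 2, for the mitochondrial enzyme, while the glycyl and lysyl enzymes serve both compartments from 1 gene. When amino acids are short, or unfolded protein builds up, phosphorylation of eIF2α raises translation of the transcription factor ATF4, which is known to bind a composite element in genes of both families.

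Fos itself averaged 135 ± 23.6, 8675 ± 1340, 4030.0 ± 377 and 3241 ± 140 units of deposited intensity with c-Fos shRNA at 0, 1, 3 and 6 h, against 246 ± 20.5, 14676 ± 60.5, 13473 ± 233 and 11929 ± 44.5 units with control shRNA (SD, n = 2 arrays each). The intensity was 45.2%, 40.9%, 70.1% and 72.8% lower with c-Fos shRNA at the 4 times, so Fos was reduced but still induced by KCl. Array medians of intensity ran between 104.75 and 118.56 over the 16 arrays. The summed intensity of 6 neuronal markers was 61060 to 67000 units on the c-Fos shRNA arrays and 59990 to 67700 on the control arrays. Astrocyte markers were also present, with sums over 8 genes of 28630 to 36470 units on the c-Fos shRNA arrays and 29530 to 37220 on the control arrays. Fabp7 had the highest median of the 8, 16910 units, while Gfap and S100b had medians of 106.2 and 60.81. Markers of the oligodendrocyte lineage and of progenitors and dividing cells (Mki67 at a median of 970.5, Top2a at 1395) were present too, so the cultures were not neurons alone. None of the 8 astrocyte markers was called in any KCl contrast or at any single time between the shRNA arms, by limma with Benjamini-Hochberg adjustment. In whole cultures, fewer cells of a type and less RNA per cell cannot be told apart.

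The first comparison concerns what KCl did to the transporters over 6 h. Levels below are deposited array intensities, and differences are log2 differences of quantile-normalised log2(intensity + 16), each with its standard error. A gene was called where its adjusted p from limma, Benjamini-Hochberg over all genes tested, was under 0.05. With c-Fos shRNA, 10 of the 43 transporters rose and 8 fell after 6 h of KCl, while 16.1% of all genes tested rose and 24.9% fell. The 18 calls of the c-Fos shRNA arm came to 10 without its replicate 1 at 6 h. With control shRNA, 15 rose and 8 fell, against 16.7% and 27.3% of all genes. With the replicate number as a block in the fit, 13 rose and 12 fell with c-Fos shRNA, and 19 rose and 12 fell in the control arm. Of all 13915 genes, the fit with the block called 3015 higher and 4634 lower with c-Fos shRNA, and 3025 and 4898 in the control arm. Without the block, in both arms alike 10 transporters rose and 6 fell, and 0 were called in opposite directions. Counts of calls shared by both arms, here and below, stand without a share of all genes. The median transporter difference at 6 h was 0.07 with c-Fos shRNA and 0.22 in control cultures, and the median of all genes was -0.06 with c-Fos shRNA and -0.07 in control cultures.

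The solute carrier 7 family held 6 of the 10 rises with c-Fos shRNA and 7 of the 15 in control cultures. It has 11 tested members, and 0 of them fell in either arm. These carriers import cationic amino acids or, paired with the heavy chain Slc3a2, exchange large neutral amino acids and cystine. Slc7a8, the light chain LAT2 for neutral amino acids, had intensities of 356 and 509.9 at 0 h, 401 and 552 after 1 h, 1183 and 1437 after 3 h and 1507 and 1847 after 6 h with c-Fos shRNA. In the control arm the values were 573 and 800.1 at 0 h, 646 and 959 after 1 h, 1234 and 1733 after 3 h and 1895 and 2246 after 6 h. In each arm both arrays at 3 h and at 6 h lay above both arrays at 0 h. The 6 h difference was 1.98 ± 0.24 with c-Fos shRNA (adjusted p = 3.36e-05) and 1.60 ± 0.24 with control shRNA (adjusted p = 0.000144), and at 3 h the gene had risen by 1.62 with c-Fos shRNA and 1.11 in control cultures. Slc7a1, the widely expressed arginine and lysine importer CAT1, read 3245 and 4034 at 0 h, 3465 and 3923 after 1 h, 5320.5 and 4906 after 3 h and 6037 and 5271 after 6 h with c-Fos shRNA. The control intensities were 3131 and 3617 at 0 h, 3371 and 3624 after 1 h, 6464 and 5229 after 3 h and 8430.3 and 6767 after 6 h. Its 6 h arrays lay above its 0 h arrays in both arms, and the difference was 0.62 ± 0.14 with c-Fos shRNA (adjusted p = 0.00403) and 1.12 ± 0.14 with control shRNA (adjusted p = 4.58e-05). A second Slc7a1 probe set gave 0.93 with c-Fos shRNA and 1.22 in control cultures, both called.

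Slc7a3, the brain-enriched cationic carrier CAT3, had the largest difference among the transporters with control shRNA, but its replicates were far apart. It read 213 and 603 at 0 h, 214 and 637 after 1 h, 379 and 881 after 3 h and 635 and 1113 after 6 h with c-Fos shRNA. The control arrays read 148 and 401 at 0 h, 139 and 492 after 1 h, 406 and 783 after 3 h and 985 and 1254 after 6 h. Replicate 2 was above replicate 1 in every group, and the 6 h arrays lay above the 0 h arrays in both arms. The 6 h difference was 1.25 ± 0.68 with c-Fos shRNA (adjusted p = 0.172, or 0.000185 with the replicate number as a block) and 2.17 ± 0.68 with control shRNA (adjusted p = 0.0206, or 4.91e-07 with the block). The control call was lost when any 1 of 3 arrays was left out: control shRNA replicate 1 at 0 h, or either replicate at 6 h. Slc7a5, the LAT1 light chain that carries leucine and other large neutral amino acids, rose by 0.38 with c-Fos shRNA and 0.87 in control cultures, and its heavy chain Slc3a2 rose by 0.32 with c-Fos shRNA and 0.60 in control cultures. In the c-Fos shRNA arm both calls ended without some single arrays: for Slc7a5, either replicate at 0 h or replicate 1 at 6 h, and for Slc3a2, replicate 1 at 0 h or at 6 h. Slc7a2, the cationic carrier CAT2, rose by 0.50 with c-Fos shRNA and 0.46 in control cultures. Slc7a14, an orphan of the family found at lysosomes, rose by 0.77 with c-Fos shRNA and 0.69 in control cultures. Slc7a11, the cystine and glutamate exchanger xCT, rose by 0.63 with c-Fos shRNA and 0.75 in control cultures. The control calls of Slc7a2 and Slc7a14 were lost without control shRNA replicate 1 at 0 h or replicate 2 at 6 h, that of Slc7a11 without either control replicate at 0 h or replicate 1 at 6 h, and in the c-Fos shRNA arm those of Slc7a14 and Slc7a11 were also lost without single arrays.

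Slc38a2, the glutamine and alanine carrier SNAT2 whose mRNA is known to rise when amino acids are withdrawn, was the 1 transporter called at 1 h, in each arm. Its intensities were 4669.6 and 4955 at 0 h, 7161 and 6478 after 1 h, 9541 and 9155 after 3 h and 8462 and 8073 after 6 h with c-Fos shRNA. Control arrays had 5785 and 5419.8 at 0 h, 7330.4 and 7338 after 1 h, 9112 and 8725 after 3 h and 8682 and 8334 after 6 h. At 1, 3 and 6 h every array lay above both arrays at 0 h of its arm, and the highest readings were those at 3 h. The differences at 1, 3 and 6 h were 0.48 ± 0.07, 0.92 ± 0.07 and 0.75 ± 0.07 with c-Fos shRNA, and 0.35 ± 0.07, 0.63 ± 0.07 and 0.56 ± 0.07 with control shRNA, where the call at 1 h was lost without control replicate 2 at 0 h or either control replicate at 1 h. At 1 h the share of all genes called higher was 1.96% with c-Fos shRNA and 2.29% in control cultures, and 1.4% with c-Fos shRNA and 0.826% in control cultures were called lower. With the block, 1 transporter rose at 1 h with c-Fos shRNA and 2 rose with control shRNA. The other member of the pair that carries glutamine into neurons, Slc38a1, fell by a small amount, -0.30 with c-Fos shRNA and -0.31 in control cultures, but a second Slc38a1 probe set read 0.61 with c-Fos shRNA and 0.33 in control cultures and was called in neither arm.

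At 3 h, 5 transporters rose and 4 fell with c-Fos shRNA, against 9.92% and 18.3% of all genes, and 10 rose and 5 fell with control shRNA, against 11% and 19.3%. These counts moved with the fit. With the replicate block, 2026 of all 13915 genes rose and 3946 fell with c-Fos shRNA, and 2201 and 3975 with control shRNA. Of the transporters, 12 rose and 8 fell with c-Fos shRNA in that fit, and 17 rose and 10 fell with control shRNA. Without c-Fos shRNA replicate 1 at 3 h the c-Fos arm had 5 calls, and without control replicate 1 at 0 h the control arm had 9. Without the block, in both arms alike 5 transporters rose at 3 h and 3 fell. The 3 and 6 h contrasts of an arm share its 0 h arrays.

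Of the 10 tested members of the solute carrier 6 family, which carries neurotransmitters, neutral amino acids and creatine, 2 rose and 1 fell with c-Fos shRNA, and 4 rose and 1 fell with control shRNA. Slc6a17, which loads neutral amino acids into synaptic vesicles, rose by 0.69 with c-Fos shRNA and 0.70 in control cultures, and its other 2 probe sets above the filter rose too. Slc6a9, the glycine transporter GlyT1, read 1217 and 1303 at 0 h, 1154 and 1235 after 1 h, 1086 and 1164 after 3 h and 1339 and 1211 after 6 h with c-Fos shRNA. For control shRNA the readings were 349.9 and 654 at 0 h, 522 and 678 after 1 h, 569 and 645 after 3 h and 1075 and 963 after 6 h. The 6 h arrays of the control arm lay above its 0 h arrays, while those of the c-Fos shRNA arm overlapped them. The difference was 0.02 ± 0.21 with c-Fos shRNA (adjusted p = 0.95) and 1.12 ± 0.21 with control shRNA (adjusted p = 0.000864), and a second, dimmer Slc6a9 probe set gave 0.25 and 0.47 in the same arms, with no call. Slc6a8, the creatine transporter, differed by 0.45 with c-Fos shRNA (adjusted p = 0.142, or 0.00144 with the block) and rose by 0.98 with control shRNA. The taurine transporter Slc6a6 rose by 0.35 with c-Fos shRNA and 0.33 in control cultures, calls that single arrays of each arm ended. The mean of its probe sets was called in neither arm, at 0.31 with c-Fos shRNA and 0.3 in control cultures. Slc38a7, a lysosomal glutamine carrier, differed by 0.08 with c-Fos shRNA (adjusted p = 0.605) and rose by 0.60 with control shRNA. Slc1a4, the neutral amino acid carrier ASCT1, differed by 0.14 (adjusted p = 0.187) with c-Fos shRNA and rose by 0.23 with control shRNA, a call lost without control replicate 1 at 0 h or at 6 h.

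The falls were led by Slc43a2, the facilitative carrier LAT4 for branched-chain amino acids and phenylalanine. It read 1046 and 1363 at 0 h, 1045 and 1248 after 1 h, 519 and 603 after 3 h and 219 and 327 after 6 h with c-Fos shRNA. In control cultures it read 1108 and 1207 at 0 h, 940.4 and 1208 after 1 h, 409.9 and 506 after 3 h and 344 and 431 after 6 h. Every 3 h and 6 h array lay below both 0 h arrays of its arm. Its 6 h difference was -2.06 ± 0.18 with c-Fos shRNA (adjusted p = 2.37e-06) and -1.5 ± 0.18 with control shRNA (adjusted p = 2.15e-05), and a second probe set fell by 1.37 with c-Fos shRNA and by 0.54 with control shRNA. Slc38a9, the lysosomal carrier through which arginine is sensed by mTORC1, read 439.5 and 463 at 0 h, 385 and 514 after 1 h, 200.1 and 246 after 3 h and 113 and 164 after 6 h with c-Fos shRNA. Luciferase control arrays read 324 and 352 at 0 h, 336 and 378 after 1 h, 115 and 164 after 3 h and 98.1 and 123 after 6 h. All 3 h and 6 h arrays were below those at 0 h, and the 6 h difference was -1.57 ± 0.18 with c-Fos shRNA and -1.47 ± 0.18 in control cultures. Of its 7 probe sets above the filter, 3 fell with c-Fos shRNA and 4 in control cultures at 6 h, and 0 rose, but another probe set stood for the gene when 1 rather than 16 was added before logs, and it was not called, at -0.28 with c-Fos shRNA and -0.23 in control cultures. Slc38a6, a carrier of the same family whose substrates are less well known, read 402 and 471 at 0 h, 316 and 411 after 1 h, 290.4 and 270.0 after 3 h and 187 and 221 after 6 h with c-Fos shRNA. Control readings were 391 and 382 at 0 h, 341 and 358 after 1 h, 201 and 232 after 3 h and 183 and 163 after 6 h. Each 6 h array was below each 0 h array, and the difference was -0.98 ± 0.13 with c-Fos shRNA and -1.04 ± 0.13 in control cultures.

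Slc6a11, Slc38a3, Slc1a3 and Slc1a6, which carry GABA, glutamine or glutamate, were called lower in at least 1 arm. As given above, the glutamate exchanger Slc7a11 and the glutamine carrier Slc38a2 rose in both arms, and the glutamine carrier Slc38a7 rose with control shRNA. Slc6a11, the GABA transporter GAT3, differed by -0.47 ± 0.21 with c-Fos shRNA (adjusted p = 0.0959, or 0.0199 with the block) and fell by 1.07 ± 0.21 with control shRNA (adjusted p = 0.0012). Slc38a3, the system N glutamine carrier of astrocytes, fell by 0.76 with c-Fos shRNA, a call lost without replicate 1 at 6 h, and by 0.84 with control shRNA. Slc1a3, the astrocyte glutamate transporter GLAST, fell by 0.16 with c-Fos shRNA, a call lost without replicate 2 at 0 h or replicate 1 at 6 h, and by 0.32 with control shRNA. The 8 astrocyte markers had median differences at 6 h of -0.12 with c-Fos shRNA and -0.19 in control cultures, with none called, and their part in these 3 results was not tested. Slc1a2, the main astrocyte glutamate transporter GLT-1, was not called on its brightest probe set (-0.20 with c-Fos shRNA and -0.26 in control cultures), while another of its 5 probe sets rose by 0.78 with c-Fos shRNA and by 1.01 with control shRNA and another fell by 1.15 with c-Fos shRNA, so the gene's probe sets disagree. With the block its brightest probe set was called lower in each arm (adjusted p = 0.0114 with c-Fos shRNA and 0.00182 in control cultures). Slc1a6, the glutamate transporter EAAT4, differed by -0.51 with c-Fos shRNA (adjusted p = 0.12, or 0.0318 with the block) and fell by 0.70 with control shRNA, a call that any 1 of the 4 arrays ended when left out. The lysosomal proton-coupled carrier Slc36a1 and the neuronal neutral amino acid carrier Slc6a15 were called lower with c-Fos shRNA: Slc36a1 by 0.28 and Slc6a15 by 0.35, against -0.04 and -0.26 with control shRNA, where neither was called. The call of Slc36a1 ended when any 1 of the 4 c-Fos shRNA arrays was left out, and that of Slc6a15 without replicate 2 at 0 h or replicate 1 at 6 h, while with the block Slc6a15 was also called lower in the control arm (adjusted p = 0.000353).

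**Figure D1:**
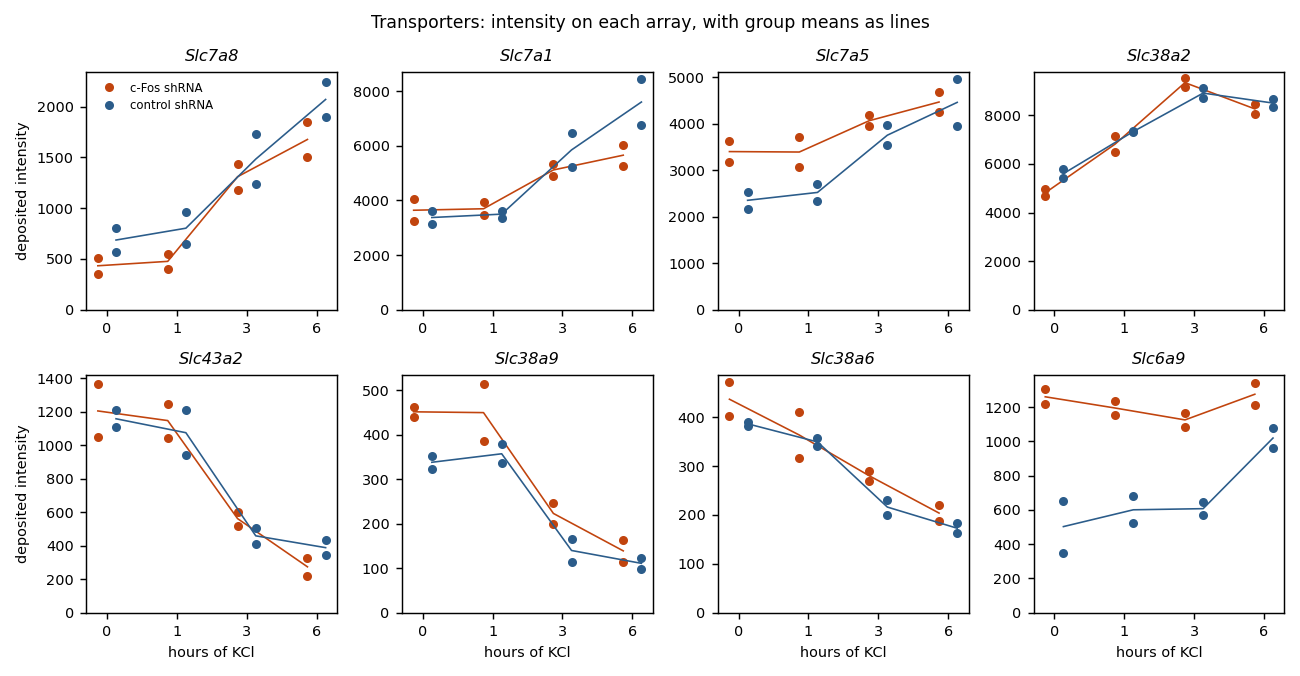
Deposited intensity (vertical axis, from 0) of 8 transporters against hours of KCl, with c-Fos shRNA in orange on the left and control shRNA in blue on the right of each time; points are the 2 arrays of a group and lines join group means. Slc7a8, Slc7a1, Slc7a5 and Slc38a2 are above their 0 h arrays at 6 h in both arms, Slc43a2, Slc38a9 and Slc38a6 are below theirs, and Slc6a9 starts higher with c-Fos shRNA.

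**Figure D2:**
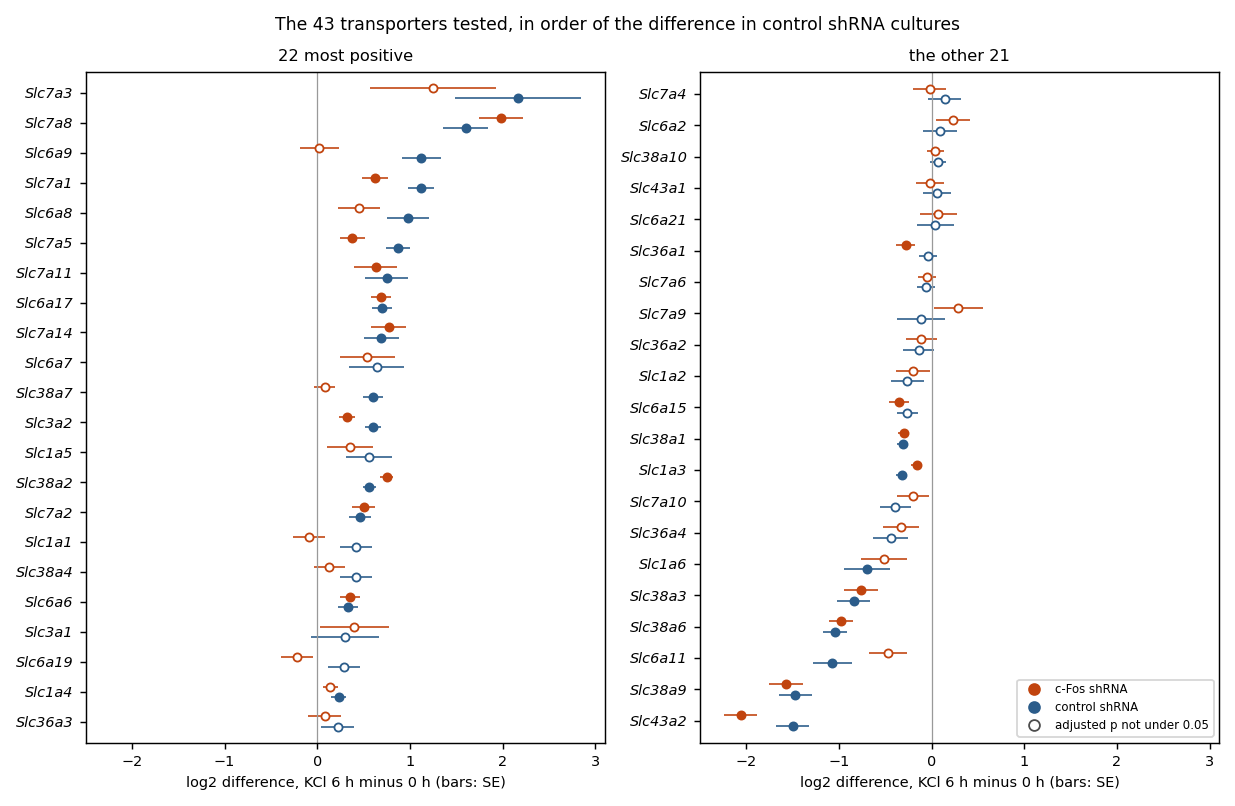
Log2 difference between 6 h and 0 h of KCl for the 43 transporters tested, with c-Fos shRNA in orange above control shRNA in blue in each row, bars for the standard error and open circles for genes whose adjusted p was not under 0.05. Filled circles count 10 higher and 8 lower with c-Fos shRNA, and 15 higher and 8 lower with control shRNA.

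The second comparison set c-Fos shRNA against control shRNA at the same KCl time. Before KCl, 10 transporters were higher and 4 lower with c-Fos shRNA, against 12% and 10.3% of all genes tested. At 1 h the counts were 7 higher and 4 lower (10.8% and 10% of all genes), at 3 h 8 and 4 (12.4% and 10.9%), and at 6 h 5 and 3 (13.4% and 10.4%). With the replicate block, 2832 of all 13915 genes were higher and 2564 lower before KCl, and 2702 and 2563 at 1 h. At 3 h that fit called 2865 and 2763, and at 6 h 3166 and 2613. Transporter counts in it were 14 higher and 9 lower before KCl, and 12 and 8 at 1 h. They were 16 and 8 at 3 h, and 11 and 9 at 6 h. Single control arrays carried weight here: the calls came to 7 without control replicate 1 at 0 h, to 7 without control replicate 1 at 1 h and to 6 without control replicate 1 at 3 h, and at 0 h also to 9 without c-Fos shRNA replicate 1. Averaged over the 4 times, 16 transporters were higher and 9 lower, against 25.2% and 22.7% of all genes. With the block 18 transporters were higher and 11 lower, against 4434 and 3971 of all 13915 genes. At all 4 times, 5 transporters were called higher and 1 lower. Counts called at all 4 times, here and for the synthetases, stand without a share of all genes.

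Slc7a2, the cationic carrier CAT2, was among the 5. Its intensities were 889 and 944 at 0 h, 812 and 801 after 1 h, 1176 and 1092 after 3 h and 1206 and 1358 after 6 h with c-Fos shRNA. The control arrays read 298 and 341 at 0 h, 266 and 304 after 1 h, 408 and 388 after 3 h and 363 and 485 after 6 h. At each time both c-Fos shRNA arrays lay above both control arrays, by 1.5, 1.46, 1.47 and 1.53 at 0, 1, 3 and 6 h (average 1.49 ± 0.06, adjusted p = 2.12e-09). Its other 2 probe sets were higher by 0.52 and 0.35. Slc6a11, the GABA transporter GAT3, read 1538 and 1843 at 0 h, 1566 and 1383 after 1 h, 1541 and 1479 after 3 h and 1179 and 1232 after 6 h with c-Fos shRNA. In control cultures it read 565 and 655 at 0 h, 659 and 754 after 1 h, 363 and 497 after 3 h and 198 and 359 after 6 h. No c-Fos shRNA array overlapped the control arrays of its time, and the difference was 1.48, 1.10, 1.78 and 2.08 at the 4 times (average 1.61 ± 0.11, adjusted p = 1.08e-07). Over the same average, 1 of the 8 astrocyte markers was called higher and 1 lower, with a median of -0.05. Slc36a4, a proton-independent carrier of proline and tryptophan, read 2218 and 2463 at 0 h, 1981 and 2499 after 1 h, 1961 and 2112 after 3 h and 1665 and 2055 after 6 h with c-Fos shRNA. In the control arm the values were 1198 and 1464 at 0 h, 1187 and 1469 after 1 h, 825 and 1193 after 3 h and 809 and 1115 after 6 h. The arms did not overlap at any time, and the average difference was 0.89 ± 0.09. The call at 0 h was lost without control replicate 1, and that at 1 h without c-Fos shRNA replicate 2 or control replicate 1.

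Slc6a17, the vesicular neutral amino acid carrier, read 1696 and 1849.6 at 0 h, 1792 and 1839 after 1 h, 2476 and 2282 after 3 h and 2875 and 2893 after 6 h with c-Fos shRNA. Control readings were 984 and 1027 at 0 h, 924 and 1037 after 1 h, 1149.6 and 1438 after 3 h and 1454 and 1830.0 after 6 h. Every c-Fos shRNA array was above the control arrays of its time, by 0.86 ± 0.06 on average (adjusted p = 1.05e-07). The fifth, Slc38a1, was higher by 0.31 on average, though its mean over probe sets was not called. Slc36a1, the proton-coupled carrier PAT1 of lysosomes, was the member called lower at all 4 times. It read 479 and 489 at 0 h, 448 and 447 after 1 h, 338 and 375 after 3 h and 359 and 393 after 6 h with c-Fos shRNA. Control arrays had 752 and 815 at 0 h, 822 and 844 after 1 h, 633 and 761 after 3 h and 693 and 764 after 6 h. The arms were apart at each time, by -0.85 ± 0.05 on average (adjusted p = 3.18e-08). Slc6a9, the glycine transporter, was higher by 1.40, 1.03 and 0.87 at 0, 1 and 3 h, and differed by 0.30 at 6 h (adjusted p = 0.352). The call at 1 h was lost without control replicate 1 and that at 3 h without c-Fos shRNA replicate 2 or control replicate 1. Its second probe set gave 0.17 over the 4 times and was not called.

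Smaller average differences in the same direction were called for Slc7a11 (0.56), Slc6a8 (0.52), Slc38a9 (0.42), Slc7a14 (0.37), Slc38a3 (0.32), Slc7a5 (0.28), Slc1a1 (0.26), Slc1a4 (0.24), Slc38a6 (0.21) and Slc38a7 (0.17). For Slc38a9, Slc7a14 and Slc1a1 another probe set was called in the opposite direction. The glutamate transporter Slc1a2 had 3526 and 4672 at 0 h, 3907 and 4344 after 1 h, 3076 and 4376 after 3 h and 3104 and 4069.9 after 6 h with c-Fos shRNA. For control shRNA the readings were 4919 and 6431 at 0 h, 4678 and 5772 after 1 h, 4563 and 5259 after 3 h and 4505 and 5221 after 6 h. Its c-Fos shRNA arrays were below the control arrays in every group of the same time, by -0.41 ± 0.09 on average (adjusted p = 0.00219), and 2 further probe sets were lower by 0.44 and 0.39. Slc7a8, the LAT2 light chain, was lower by 0.44 on average, with c-Fos shRNA arrays below control arrays at 0, 1 and 6 h and overlapping them at 3 h. Slc6a15, a neuronal carrier of branched-chain amino acids and proline, read 2885 and 3373 at 0 h, 2810.3 and 3231 after 1 h, 2801 and 3002 after 3 h and 2312 and 2629 after 6 h with c-Fos shRNA. Luciferase control arrays read 3567 and 4317 at 0 h, 3627 and 4337 after 1 h, 3547 and 3928 after 3 h and 3233 and 3531 after 6 h. The arms did not overlap at any time, and the average difference was -0.37 ± 0.06 (adjusted p = 0.000123). The other average falls were Slc38a10 (-0.28), Slc7a4 (-0.27), Slc7a6 (-0.26), Slc6a6 (-0.20) and Slc1a3 (-0.16). The calls of Slc1a1, Slc38a7 and Slc7a4 were lost without single arrays in 8, 5 and 7 of the 16 omissions.

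An interaction term tested whether the arms responded differently to KCl. For the transporters 0 were called at 1, 3 and 6 h by limma, with 0, 3 and 6 at an unadjusted p under 0.05, and among all genes 0.00719% and 0.0359% were called higher and lower after 1 h, 0.129% and 0.273% after 3 h, and 0.453% and 0.783% after 6 h. With the replicate block, 276 of all 13915 genes were called higher and 284 lower after 3 h, and 798 and 784 after 6 h. Lower here means a smaller rise or larger fall with c-Fos shRNA. For transporters the block gave 2 higher and 1 lower after 3 h, and 5 lower after 6 h. Those 5 were Slc6a9 (-1.10 ± 0.30, adjusted p = 0.104, or 0.0102 with the block), Slc43a2 (-0.55), Slc6a8 (-0.53), Slc38a7 (-0.52) and the neuronal glutamate transporter Slc1a1 (-0.51). For Slc6a9 the intensities above show that the arms differed most at 0 h, when it read 1217 and 1303 with c-Fos shRNA and 349.9 and 654 with control shRNA, and least at 6 h. So without the block a difference in response between the arms is not shown for transporters called in the control arm alone.

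The regulatory sequence near the start of these genes was searched for 3 motifs, because genes of both families are known ATF4 targets and Fos is part of AP-1. Promoter windows from RefSeq on build GRCm38.p6, running from 250 bases before to 50 after an annotated start, were found for 64 of the 89 members, 41 transporters and 23 synthetases. The motifs were the C/EBP-ATF composite element (CARE, TGATGNAA, reverse complement TTNCATCA), an AP-1 pattern that allows any middle base (TGANTCA) and the cyclic AMP response element (CRE, TGACGTCA). They were searched on both strands, and no match of 1 motif overlapped a match of another in the members. The AP-1 pattern was found in 8 of 41 transporter genes (19.5%) and 9.0% of all genes in the table. The 8 were Slc38a10, Slc38a7, Slc3a1, Slc6a12, Slc6a14, Slc6a17, Slc6a5 and Slc7a1, of which Slc38a10, Slc38a7 and Slc6a12 matched only as TGATTCA. Of the 5 of these that were tested, 2 rose with c-Fos shRNA and 3 in control cultures at 6 h of KCl, and 0 fell. Of the 25 tested transporters with a promoter window but without the motif, 5 rose and 5 fell with c-Fos shRNA, and 7 rose and 6 fell in control cultures. Of all genes tested, 16.1% rose and 24.9% fell with c-Fos shRNA, and 16.7% rose and 27.3% fell in control cultures. The CARE motif was found in 4 transporters (9.8%, against 4.5% of all genes): Slc1a4, Slc6a21, Slc7a7 and Slc7a11, and the CRE in 1. Of the 3 CARE transporters tested, 1 rose with c-Fos shRNA and 2 in control cultures at 6 h, and 0 fell. Of the 27 tested with a window but without CARE, 6 rose and 5 fell with c-Fos shRNA. In control cultures 8 of those 27 rose and 6 fell. Slc7a11, which rose in both arms at 6 h, has 2 matches, shown in capitals in the 86 bases before its start (chr3:50443614-50443699, minus strand, written 5′ to 3′ on that strand).
Slc7a11: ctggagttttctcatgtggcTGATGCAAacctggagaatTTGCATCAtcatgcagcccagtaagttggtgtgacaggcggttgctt
A match shows that these letters are present in the window.

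For the synthetases the same KCl comparison gave rises mostly among the cytosolic enzymes and falls mostly among the mitochondrial ones. With c-Fos shRNA, 9 of the 31 rose and 10 fell after 6 h of KCl, against 16.1% and 24.9% of all genes tested. With control shRNA, 10 rose and 13 fell, against 16.7% and 27.3% of all genes. With the replicate block 9 rose and 15 fell with c-Fos shRNA, and 12 rose and 15 fell in the control arm. The block's calls among all 13915 genes were 3015 higher and 4634 lower with c-Fos shRNA, and 3025 and 4898 in the control arm. Without the block, in both arms alike 9 rose and 10 fell, and 0 were called in opposite directions. Of the 16 genes for cytosolic or dual enzymes, 7 rose and 3 fell with c-Fos shRNA, and 8 rose and 4 fell with control shRNA, with medians of 0.08 and 0.21. Of the 15 genes for mitochondrial enzymes, 2 rose and 7 fell with c-Fos shRNA, and 2 rose and 9 fell with control shRNA, with medians of -0.61 and -0.83. The members of each compartment were not tested as a set. No synthetase was called at 1 h in either arm, by limma or with the replicate block. At 3 h, 3 rose and 5 fell with c-Fos shRNA (9.92% and 18.3% of all genes), and 4 rose and 6 fell with control shRNA (11% and 19.3%). With the block the 3 h counts were 4 and 12 with c-Fos shRNA, and 6 and 8 with control shRNA. For all 13915 genes they were 2026 and 3946 with c-Fos shRNA, and 2201 and 3975 with control shRNA. The 8 calls at 3 h with c-Fos shRNA came to 3 without replicate 2 at 0 h, to 3 without replicate 1 at 3 h and to 4 without replicate 1 at 0 h, and the 10 with control shRNA came to 6 without control replicate 2 at 3 h.

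Iars, the cytosolic isoleucyl enzyme, read 3563 and 3711 at 0 h, 3762 and 3823 after 1 h, 5143 and 4543 after 3 h and 6522 and 5860.5 after 6 h with c-Fos shRNA. In the control arm the values were 3130.3 and 3432 at 0 h, 3374 and 3696 after 1 h, 5109 and 4611 after 3 h and 6526 and 5788 after 6 h. Both arrays at 3 h and at 6 h lay above those at 0 h in each arm, and 6 h was the highest time. The 6 h difference was 0.74 ± 0.10 with c-Fos shRNA (adjusted p = 6.22e-05) and 0.85 ± 0.10 with control shRNA (adjusted p = 1.64e-05), and a second probe set gave 0.92 and 1.02 in the same arms. Cars, the cysteinyl enzyme, read 1130.2 and 1429 at 0 h, 1258 and 1527 after 1 h, 1424 and 1458 after 3 h and 1986 and 1997 after 6 h with c-Fos shRNA. The control arrays read 792 and 1046 at 0 h, 785 and 937 after 1 h, 1087 and 1064 after 3 h and 1793 and 1582 after 6 h. Its 6 h arrays stood above all earlier arrays of the arm, by 0.64 ± 0.14 over 0 h with c-Fos shRNA and 0.88 ± 0.14 in control cultures. Tars, the threonyl enzyme, read 2122 and 2232 at 0 h, 2231 and 2538 after 1 h, 2523 and 2409 after 3 h and 3344 and 2957 after 6 h with c-Fos shRNA. In control cultures it read 2332 and 2421 at 0 h, 2358 and 2291 after 1 h, 3236 and 2823 after 3 h and 4301 and 3142 after 6 h. The 6 h arrays were above the 0 h arrays in both arms, by 0.51 ± 0.13 with c-Fos shRNA (adjusted p = 0.00741, a call lost without replicate 1 at 6 h) and 0.59 ± 0.13 with control shRNA (adjusted p = 0.00263).

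Among the other cytosolic enzymes that rose in both arms, Aars, the alanyl enzyme, rose by 0.30 with c-Fos shRNA and 0.58 in control cultures. Nars, the asparaginyl enzyme, rose by 0.35 with c-Fos shRNA and 0.57 in control cultures. Gars, the glycyl enzyme of both compartments, rose by 0.17 with c-Fos shRNA and 0.32 in control cultures, and the histidyl Hars by 0.18 with c-Fos shRNA and 0.22 in control cultures. Each of these 4 calls in the c-Fos shRNA arm was lost without replicate 1 at 0 h, and those of Aars, Gars and Hars also without replicate 1 at 6 h and that of Aars without replicate 2 at 6 h. Sars, the seryl enzyme, differed by 0.03 with c-Fos shRNA (adjusted p = 0.766) and rose by 0.26 with control shRNA, a call lost without control replicate 1 at 0 h or at 6 h. Not all cytosolic enzymes moved up. Wars, the tryptophanyl enzyme, read 1972 and 1960.1 at 0 h, 1937 and 1950.3 after 1 h, 1649 and 1616 after 3 h and 1269.6 and 1390.1 after 6 h with c-Fos shRNA. Control readings were 1371 and 1377 at 0 h, 1353 and 1264 after 1 h, 1076 and 1061 after 3 h and 676 and 719 after 6 h. Its 3 h and 6 h arrays were below the 0 h arrays of both arms, by -0.56 ± 0.07 at 6 h with c-Fos shRNA (adjusted p = 4.21e-05) and -0.93 ± 0.07 with control shRNA (adjusted p = 5.89e-07), and 2 of its other 3 probe sets fell in both arms. The leucyl Lars fell by 0.66 with c-Fos shRNA and by 0.51 with control shRNA, and the arginyl Rars by 0.37 with c-Fos shRNA and by 0.31 with control shRNA. Qars, the glutaminyl enzyme, differed by -0.15 with c-Fos shRNA (adjusted p = 0.355) and fell by 0.38 with control shRNA, a call lost without either control replicate at 0 h or replicate 1 at 6 h. Mars1, Vars, Yars and Kars were not called at 6 h in either arm, at differences of -0.19, -0.32, 0.14 and -0.06 with c-Fos shRNA and 0.21, -0.31, 0.21 and -0.15 with control shRNA. The block added calls for Mars1, lower with c-Fos shRNA (adjusted p = 0.00777) and higher with control shRNA (adjusted p = 0.00448), for Vars, lower with c-Fos shRNA (adjusted p = 0.0493), and for Yars, higher with control shRNA (adjusted p = 0.0207).

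Rars2, the mitochondrial arginyl enzyme, had the largest 6 h difference of either family with control shRNA, and it fell in both arms. It read 1039 and 1161 at 0 h, 1088 and 1251 after 1 h, 654 and 808 after 3 h and 229.6 and 298 after 6 h with c-Fos shRNA. Control arrays had 876 and 934 at 0 h, 906 and 969 after 1 h, 403 and 524 after 3 h and 143 and 207 after 6 h. Readings at 1 h overlapped those at 0 h, both 3 h arrays were lower, and both 6 h arrays were lower again. The 6 h difference was -1.97 ± 0.16 with c-Fos shRNA (adjusted p = 1.95e-06) and -2.27 ± 0.16 with control shRNA (adjusted p = 4.98e-07). Iars2, the isoleucyl enzyme of mitochondria, read 688 and 746 at 0 h, 714 and 785 after 1 h, 559 and 576 after 3 h and 382 and 469 after 6 h with c-Fos shRNA. In the control arm the values were 585 and 734 at 0 h, 669.6 and 742 after 1 h, 348 and 391 after 3 h and 268 and 318 after 6 h. All its 3 h and 6 h arrays were below those at 0 h, by -0.67 ± 0.12 at 6 h with c-Fos shRNA and -1.07 ± 0.12 in control cultures. Ears2, the glutamyl enzyme, read 162 and 186 at 0 h, 146 and 177 after 1 h, 82.1 and 98.5 after 3 h and 85.6 and 118 after 6 h with c-Fos shRNA. Control arrays had 189 and 191 at 0 h, 168 and 169 after 1 h, 107 and 124 after 3 h and 81.2 and 75 after 6 h. Its 6 h arrays were below the 0 h arrays, by -0.70 ± 0.13 with c-Fos shRNA and -1.11 ± 0.13 in control cultures, and the second probe sets of Iars2 and Ears2 fell in both arms too.

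Hars2, the histidyl enzyme, read 849 and 903 at 0 h, 808 and 937 after 1 h, 470.3 and 549 after 3 h and 550.1 and 752 after 6 h with c-Fos shRNA. For control shRNA the readings were 866 and 1054 at 0 h, 815 and 932 after 1 h, 453 and 506 after 3 h and 423 and 527 after 6 h. Its lowest readings with c-Fos shRNA were at 3 h and with control shRNA 3 h and 6 h overlapped. The 6 h difference was -0.38 ± 0.15 with c-Fos shRNA (adjusted p = 0.0576, or 0.00103 with the block) and -0.94 ± 0.15 with control shRNA (adjusted p = 0.000199). Lars2 fell by 1.00 with c-Fos shRNA and by 0.91 with control shRNA, Cars2 by 0.84 and by 0.83, Fars2 by 0.67 and by 0.84, and Tars2 by 0.61 and by 0.36 in the same arms. These encode the mitochondrial leucyl, cysteinyl, phenylalanyl and threonyl enzymes, and the control call of Tars2 was lost without control replicate 1 at 0 h. Yars2 differed by -0.09 with c-Fos shRNA (adjusted p = 0.537) and fell by 0.28 with control shRNA, a call that any 1 of the 4 arrays ended when left out. Mars2, the methionyl enzyme, was 1 of the 2 mitochondrial enzymes that rose. It read 191 and 164 at 0 h, 206 and 150.4 after 1 h, 296 and 279.7 after 3 h and 332 and 325 after 6 h with c-Fos shRNA. Luciferase control arrays read 306 and 221 at 0 h, 296 and 294 after 1 h, 391 and 372 after 3 h and 447 and 383 after 6 h. Its 6 h arrays were above its 0 h arrays in both arms, by 0.87 ± 0.18 with c-Fos shRNA (adjusted p = 0.00217) and 0.73 ± 0.18 with control shRNA (adjusted p = 0.00611), but the control call was lost without replicate 2 at 0 h or replicate 1 at 6 h, and the mean over its probe sets was -0.07 with control shRNA. The mean over the Mars2 probe sets was not called in the c-Fos shRNA arm either, at 0.15. Nars2, the asparaginyl enzyme, rose by 0.59 with c-Fos shRNA. Its control rise was 0.24, and any 1 of the 4 arrays ended that call when left out. Taken as the mean of its probe sets, Nars2 was called in neither arm. That mean was 0.07 for the c-Fos shRNA arm and 0.14 in control cultures. Sars2, Vars2, Wars2 and Aars2 were not called in either arm without the block. With it Sars2, the seryl enzyme, was called lower at -0.91 ± 0.37 with c-Fos shRNA (adjusted p = 0.0705, or 0.00355 with the block) and -0.96 ± 0.37 with control shRNA (adjusted p = 0.0527, or 0.00212 with the block). Vars2, the valyl enzyme, was likewise called lower with the block, at -0.36 with c-Fos shRNA (adjusted p = 0.0072) and -0.43 with control shRNA (adjusted p = 0.00169).

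**Figure D3:**
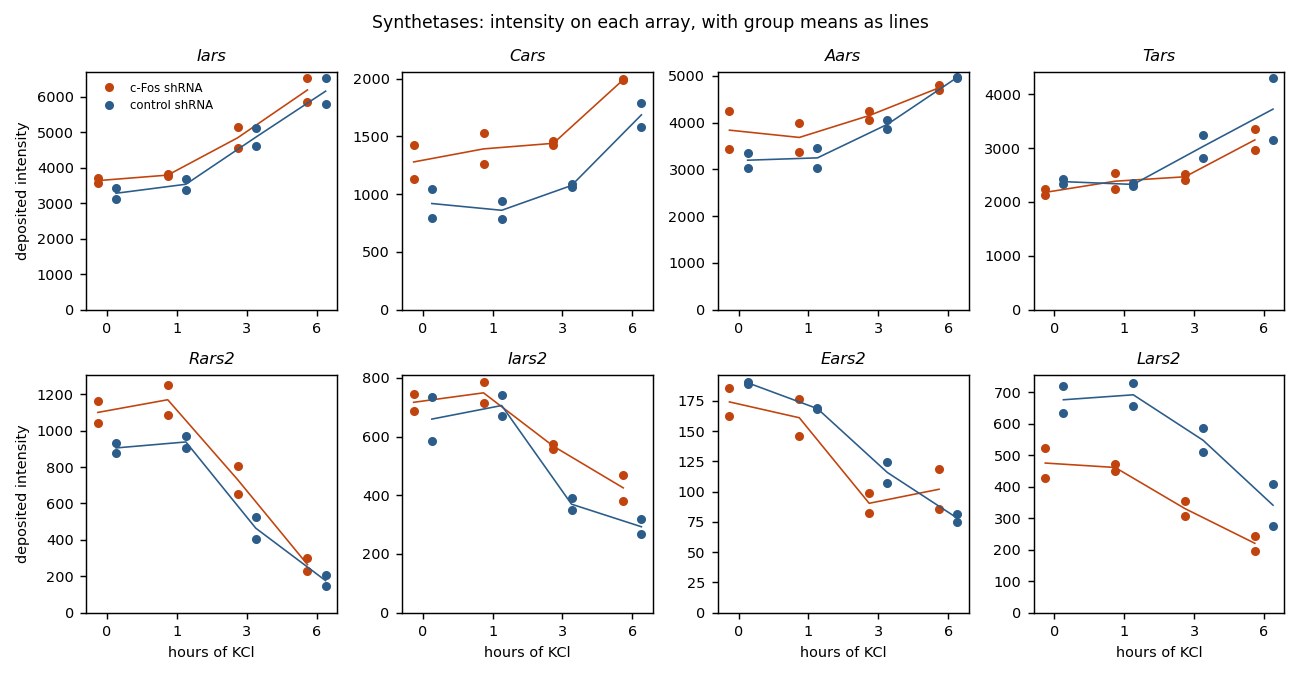
Deposited intensity (vertical axis, from 0) of 8 synthetases against hours of KCl, with c-Fos shRNA in orange on the left and control shRNA in blue on the right of each time; points are the 2 arrays of a group and lines join group means. The cytosolic enzymes of the upper row are higher at 6 h than at 0 h in both arms, and the mitochondrial enzymes of the lower row are lower.

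**Figure D4:**
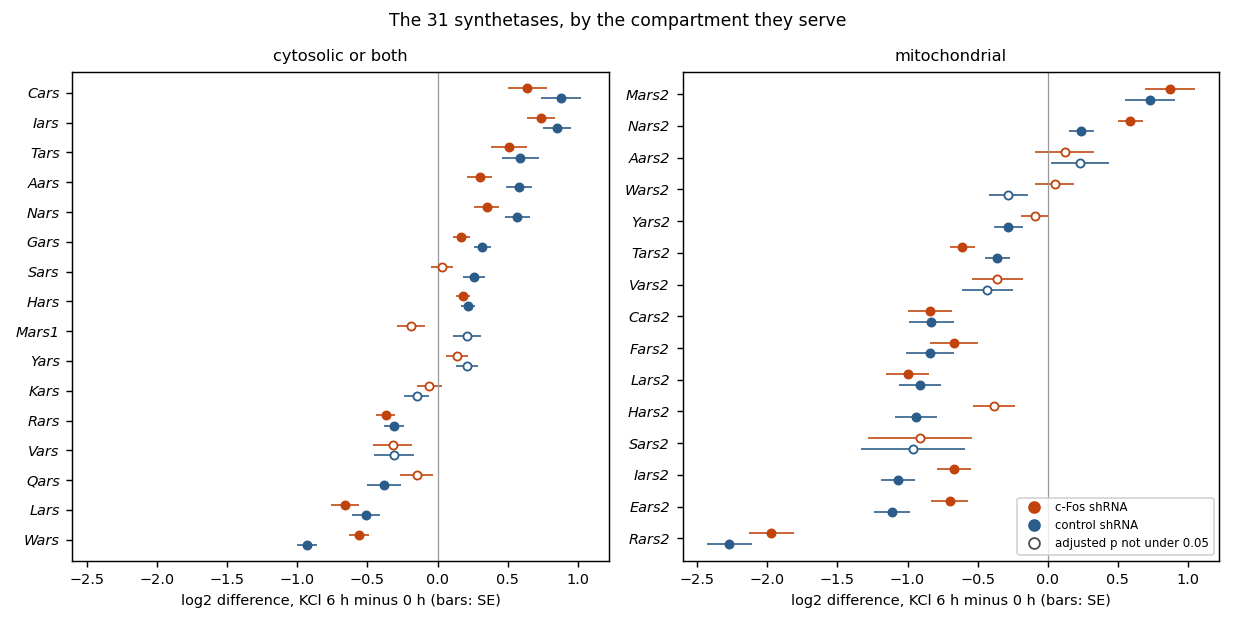
Log2 difference between 6 h and 0 h of KCl for the 31 synthetases, cytosolic or dual on the left and mitochondrial on the right, with c-Fos shRNA in orange above control shRNA in blue in each row, bars for the standard error and open circles for genes whose adjusted p was not under 0.05. Among the mitochondrial enzymes, 7 fell with c-Fos shRNA and 9 in control cultures.

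The CARE motif was found in the promoter windows of 5 of 23 synthetase genes (21.7%), Aars, Gars, Iars, Tars and Yars, against 4.5% of all genes in the table, and the AP-1 motif in 1, Qars (4.3%, against 9.0%). All 5 encode enzymes that serve the cytosol. At 6 h of KCl, when 16.1% of all genes rose and 24.9% fell with c-Fos shRNA and 16.7% rose and 27.3% fell in control cultures, 4 of these 5 rose in each arm and 0 fell, with median differences of 0.3 with c-Fos shRNA and 0.58 in control cultures. Of the 18 synthetases in the table without the motif, 2 rose and 7 fell with c-Fos shRNA, and 3 rose and 9 fell with control shRNA. The matches upstream of the start are shown in capitals for Aars (chr8:111033710-111033809, plus strand), Gars (chr6:55037951-55038000, plus strand) and Tars (chr15:11399659-11399693, minus strand), each written 5′ to 3′ on the gene's strand, and the stretches of Gars and Tars end at the last base before the start.
Aars: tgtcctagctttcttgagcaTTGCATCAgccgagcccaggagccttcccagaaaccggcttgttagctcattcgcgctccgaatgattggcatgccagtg
Gars: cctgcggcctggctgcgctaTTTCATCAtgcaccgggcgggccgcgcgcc
Tars: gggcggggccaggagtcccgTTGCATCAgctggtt
All 3 stretches hold the motif as its reverse complement, and the Aars match shown lies farther from the start than those of Gars or Tars. Aars also has a second match, TTTCATCA, which begins at base 10 counted from the start and is outside the stretch shown.

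Between the shRNA arms, more synthetases were called higher than lower with c-Fos shRNA, as were more of all genes tested. For the synthetases, the higher and lower calls numbered 5 and 1 before KCl and 5 and 2 after 1 h. They numbered 8 and 1 after 3 h, and 7 and 3 after 6 h. As shares of the 31 these were 16.1% and 3.23%, 16.1% and 6.45%, 25.8% and 3.23%, and 22.6% and 9.68%. The shares of all genes in each direction were 12% and 10.3%, 10.8% and 10%, 12.4% and 10.9%, and 13.4% and 10.4% at the same times. Averaged over times 9 were higher and 3 lower (29% and 9.68%), against 25.2% and 22.7% of all genes. With the replicate block the higher and lower calls were 9 and 3 before KCl, 8 and 3 (1 h), 8 and 4 (3 h), and 10 and 5 (6 h). In the average they were 10 and 7, where Sars, Tars, Tars2 and Cars2 were the added lower calls. Of all 13915 genes the block called 2832 and 2564, 2702 and 2563, 2865 and 2763, and 3166 and 2613 at those times. In the average it called 4434 and 3971. Without single arrays the 6 calls at 0 h came to 3 (c-Fos shRNA replicate 2 or control replicate 1), the 9 at 3 h to 5 (replicate 1 of either arm) and the 10 at 6 h to 5 (c-Fos shRNA replicate 2). At all 4 times 4 synthetases were called higher, Kars, Wars, Lars and Yars, and 1 lower, Lars2.

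Kars, the lysyl enzyme of both compartments, read 2564 and 2482 at 0 h, 2635 and 2367 after 1 h, 2762 and 2444 after 3 h and 2480.0 and 2372 after 6 h with c-Fos shRNA. For control shRNA the readings were 1584 and 1589 at 0 h, 1512 and 1620.4 after 1 h, 1669 and 1683 after 3 h and 1311 and 1523 after 6 h. Every c-Fos shRNA array lay above every control array whatever the time, and the difference was 0.67, 0.70, 0.63 and 0.76 at 0, 1, 3 and 6 h (average 0.69 ± 0.05, adjusted p = 1.01e-07). Wars, whose readings are given above, was higher with c-Fos shRNA by 0.51, 0.61, 0.61 and 0.89 at the 4 times (average 0.66 ± 0.03, adjusted p = 1.8e-08), and all 4 of its probe sets were higher. The arrays of the 2 arms did not overlap at any time. Lars read 2901 and 3223 at 0 h, 2844 and 3225 after 1 h, 2454 and 2483 after 3 h and 2006 and 1849.7 after 6 h with c-Fos shRNA. The control arrays read 2044 and 2362 at 0 h, 2098 and 2292 after 1 h, 1857 and 1815 after 3 h and 1628 and 1447 after 6 h. The arms were apart at each time, by 0.44 ± 0.05 on average, and the call at 6 h was lost without c-Fos shRNA replicate 1 or control replicate 2. Cars was higher by 0.47 ± 0.07 on average, though a second probe set read -0.15, and Yars by 0.33 ± 0.04. The calls of Yars were lost when any of 3 single arrays (0 h), 4 (3 h) and 3 (6 h) was left out, and that at 6 h also under both other scalings. Lars2 read 427 and 524 at 0 h, 449 and 474 after 1 h, 306 and 355 after 3 h and 197 and 244 after 6 h with c-Fos shRNA. In control cultures it read 635 and 719 at 0 h, 656 and 729.6 after 1 h, 510.2 and 586 after 3 h and 274 and 408 after 6 h. Its c-Fos shRNA arrays were below the control arrays of each time, by -0.58 ± 0.08 on average (adjusted p = 4.83e-05), while a second, dimmer probe set read 0.17 with no call. Its calls were lost without any of 4 single arrays (0 h), 4 (1 h), 1 (3 h) and 2 (6 h), and all 4 were lost with the mean of its probe sets, at differences of -0.22, -0.19, -0.14 and -0.19.

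Among the mitochondrial enzymes, Rars2 was higher with c-Fos shRNA by 0.64 at 3 h and 0.56 at 6 h, and Iars2 by 0.61 and 0.52. Both fell with KCl in each arm, so at those times their levels lay higher with c-Fos shRNA than with control shRNA. The calls of Rars2 at 3 h and 6 h and of Iars2 at 6 h were lost without single arrays. Nars2 and Nars were higher by 0.31 and 0.16 on average, and Mars2 and Yars2 lower by 0.46 and 0.22. Yars2, the mitochondrial tyrosyl enzyme, read 410.1 and 429 at 0 h, 473 and 414 after 1 h, 454 and 404 after 3 h and 361 and 385 after 6 h with c-Fos shRNA. Control readings were 535 and 501 at 0 h, 579 and 546 after 1 h, 522 and 476 after 3 h and 391 and 405 after 6 h. Its c-Fos shRNA arrays were below the control arrays at each time. No synthetase interaction was called at 1, 3 or 6 h by limma, with 0, 1 and 6 at an unadjusted p under 0.05, against the shares of all genes given above for the same test. With the replicate block, 276 of all 13915 genes were called higher and 284 lower at 3 h, and 798 and 784 at 6 h. Of the synthetases 1 was called with it at 3 h, Iars2 (0.49 ± 0.17, adjusted p = 0.0291 with the block), and 4 at 6 h. Those were Hars2 (0.57 ± 0.21), Iars2 (0.40 ± 0.17) and Wars (0.37 ± 0.10), which fell less with c-Fos shRNA, and Mars1 (-0.40 ± 0.14), with adjusted p = 0.00629, 0.0412, 0.0135 and 0.00484 with the block, in that order.

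**Figure D5:**
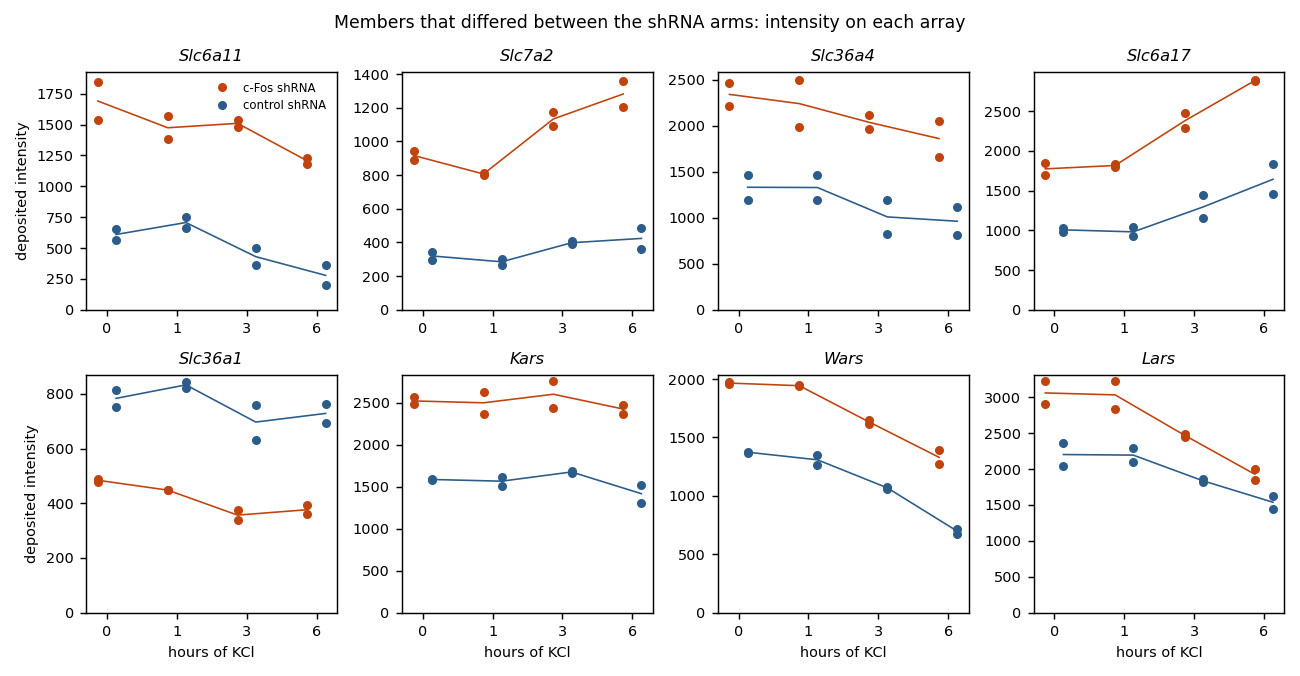
Deposited intensity (vertical axis, from 0) of 5 transporters and 3 synthetases that differed between the shRNA arms, against hours of KCl, with c-Fos shRNA in orange on the left and control shRNA in blue on the right of each time; points are the 2 arrays of a group and lines join group means. At every time the c-Fos shRNA arrays lie above the control arrays for Slc6a11, Slc7a2, Slc36a4, Slc6a17, Kars, Wars and Lars, and below them for Slc36a1.

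Related genes were taken from 6 lists. The list closest to the families holds the integrated stress response and amino acid synthesis, with 27 genes tested. At 6 h of KCl 15 of them rose and 2 fell with c-Fos shRNA, with a median of 0.48, and 19 rose and 1 fell with control shRNA, with a median of 0.82. Of all genes tested, 16.1% rose and 24.9% fell at 6 h with c-Fos shRNA, and 16.7% rose and 27.3% fell in control cultures. At 3 h, 7 rose and 2 fell with c-Fos shRNA (median 0.19), and 17 rose and 2 fell with control shRNA (median 0.59), against 9.92% and 18.3% of all genes with c-Fos shRNA and 11% and 19.3% in control cultures. Atf4 rose by 0.48 with c-Fos shRNA and 0.82 in control cultures at 6 h, and by 0.81 and 1.21 at 3 h. Asns, asparagine synthetase, rose by 0.44 with c-Fos shRNA and 0.63 in control cultures, and Sesn2, a sensor of leucine, by 1.02 and 1.87. Chac1, which degrades glutathione, rose by 1.31 with c-Fos shRNA and 2.51 in control cultures. Trib3, a pseudokinase induced by ATF4, differed by 0.57 with c-Fos shRNA (adjusted p = 0.0905) and rose by 2.44 with control shRNA, and its interaction at 6 h was called (-1.87 ± 0.36, adjusted p = 0.0304), as was that of Ndrg1 (-1.24 ± 0.13, adjusted p = 0.00187). At 3 h the interactions of Trib3 and Eif2ak3, the eIF2α kinase PERK, were called lower, and the median of the list's interactions was -0.32 at 3 h and -0.34 at 6 h, against -0.01 and 0.01 for all genes. Between the arms, 11 of the 27 were higher and 3 lower with c-Fos shRNA on average, against 25.2% and 22.7% of all genes.

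At 6 h of KCl, 16.1% of all genes rose and 24.9% fell with c-Fos shRNA, and 16.7% rose and 27.3% fell in control cultures. The 6 h counts of this list and of those that follow are to be read against these shares. Of 16 other synthetase and translation-complex genes tested, 1 rose and 9 fell at 6 h with c-Fos shRNA, and 1 rose and 8 fell with control shRNA. The riser was Eprs, the fused glutamyl and prolyl enzyme, at 1.25 ± 0.06 with c-Fos shRNA and 0.98 ± 0.06 in control cultures. Pars2, the mitochondrial prolyl enzyme, fell by 1.21 with c-Fos shRNA and by 1.16 with control shRNA, Farsb, the cytosolic phenylalanyl β-subunit, by 0.53 and by 0.22, and Aimp1, a scaffold of the multi-synthetase complex, by 0.42 and by 0.51. Among 21 tested genes of amino acid sensing at the lysosome, where Slc38a9 and Slc36a1 act, 5 rose and 5 fell with c-Fos shRNA and 6 rose and 6 fell with control shRNA at 6 h, with Flcn up by 1.19 and 0.86 and Nprl3 down by 0.76 and by 1.14. Of 8 glutamate, glutamine and GABA enzymes 2 rose and 3 fell at 6 h in each arm, with the GABA synthetic enzyme Gad1 up by 0.75 with c-Fos shRNA and 0.40 in control cultures. Of 9 vesicular and mitochondrial carriers 2 rose and 0 fell with c-Fos shRNA, and 1 rose and 2 fell with control shRNA. Of 9 genes of glutathione and oxidative defence, 1 rose and 2 fell with c-Fos shRNA, and 0 were called with control shRNA at 6 h. For the average between the arms, the first 4 of these lists, in that order, had 5 higher and 7 lower, 4 and 8, 1 and 3, and 3 and 1 with c-Fos shRNA, and the glutathione list had 2 and 3, against 25.2% and 22.7% of all genes.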

How the data were processed

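The deposited table holds 1 linear intensity per probe set and array; per the labels' protocols the arrays went through Affymetrix processing, and the summarization software is not given in the sources used here. Of 45101 probe sets, 64 controls were left out, and by the platform annotation 34945 of the rest had 1 gene, 932 had several and 9160 had none. Probe sets named s_at or x_at can also match other transcripts. log2(intensity + 16) was quantile normalised, the probe set brightest on average stood for a gene, and genes above the 30th percentile of probe sets (5.786 on the log2 scale) were tested. Gene symbols were updated through a RefSeq gene table on GRCm38.p6.

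limma 3.58.1 (R 4.3.3) fitted 8 group means to the 16 arrays (8 residual degrees of freedom), with lmFit and eBayes with an intensity trend, and Benjamini-Hochberg adjustment over 13915 genes within a contrast; a gene was called at an adjusted p under 0.05. The fit was tested on simulated data. The number of arrays limits the precision. Replicate numbers come from the labels. In all 28 pairs of groups, same-numbered arrays deviated together (correlations of 0.36 to 0.60, median 0.48), so each family's counts are also given with the replicate number as a block, and its adjusted p beside the 6 h values whose call it changes. Any member could be named, and those with the 4 largest called rises and falls of a family at 6 h with control shRNA or in the average between arms have every array's value. The members, lists and rules were chosen with earlier results of these data known. Alternatives changed the normalisation, the offset, the filter, the probe set rule, the block and the arrays. Promoter windows are RefSeq's, and figures were drawn with matplotlib 3.10.9 in Python 3.11.15.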

Additional observations from a re-analysis of the deposited data

Results flagged for a closer look

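Among the related genes, 4 interaction terms were called by limma, each a difference between the shRNA arms in the response to KCl with Benjamini-Hochberg adjustment over all genes tested. Trib3 after 3 h differed by -0.31 with c-Fos shRNA and rose by 1.61 with control shRNA, an interaction of -1.92 ± 0.36 (adjusted p = 0.0467). Its interaction after 6 h was -1.87. Eif2ak3 after 3 h differed by -0.30 with c-Fos shRNA and rose by 0.63 with control shRNA, an interaction of -0.94 ± 0.17 (adjusted p = 0.0467). Ndrg1, known as a stress-responsive gene, fell after 6 h in both arms, to a difference of -1.90 ± 0.09 with c-Fos shRNA and -0.66 ± 0.09 in control cultures, an interaction of -1.24. No member of either family was among the genes called for an interaction without the replicate block. Each of these values rests on 2 arrays a group.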

How the results depend on the processing

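Of the member calls, 0 reversed without further normalisation, with each array shifted to one median, without the filter on dim genes, with the replicate block or with any 1 array left out. With 1 in place of 16 added before logs, Slc38a9 between the arms reversed to -0.32 at 3 h and -0.29 on average, as another probe set became its brightest. With the mean of a gene's probe sets, Slc38a1 reversed to 0.03 at 3 h and 0.01 at 6 h of KCl with control shRNA and 0.15 at 6 h with c-Fos shRNA, Mars2 to -0.07 at 6 h with control shRNA, Slc38a2 to 0.13 between the arms at 0 h, and Slc1a1 to -0.09 on average, and 54 calls were lost. That setting also gave 2 transporter calls at 1 h with c-Fos shRNA and 1 synthetase interaction at 6 h. The medians of all genes moved by under 0.1 under each scaling. With each array shifted to one median, 11 transporters were higher and 1 lower between the arms at 0 h, and 2 synthetases rose and 6 fell at 3 h with c-Fos shRNA. Without further normalisation, 8 transporters were higher and 2 lower between the arms at 3 h.

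With the replicate block, which ended 0 member calls, transporter calls came to 2, 27 and 20 for KCl at 1 h and 3 h with control shRNA and at 3 h with c-Fos shRNA. Between the arms they were 23, 20, 24 and 20 at 0, 1, 3 and 6 h, and interactions numbered 3 after 3 h and 5 after 6 h. Synthetase calls came to 16 at 3 h with c-Fos shRNA, 12 (0 h) and 11 (1 h) between the arms, and 1 (3 h) and 4 (6 h) for interactions. The block moved no other family's total of both directions by over 1.5 times, but the synthetases called lower between the arms came to 4 (3 h), 5 (6 h) and 7 (average), against 1, 3 and 3 without it. Calls among all genes rose with the block as well, as given above.

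With 1 array left out, the lone array of its group was assumed to vary like the other groups. Transporter calls ranged between 0 and 1 for KCl at 1 h with control shRNA (0 without either control array at 1 h), 9 and 14 at 3 h with control shRNA, 5 and 8 at 3 h and 10 and 15 at 6 h with c-Fos shRNA. Between the arms they ranged over 7 to 13 (0 h), 7 to 9 (1 h) and 6 to 10 (3 h). The interaction at 6 h had 0 to 1, with 1 without control replicate 2 at 0 h. Synthetase calls ranged between 6 and 9 at 3 h with control shRNA and 3 and 6 at 3 h with c-Fos shRNA, and between the arms over 3 to 7 (0 h), 5 to 7 (3 h) and 5 to 7 (6 h). Over all single-array omissions 1167 calls were kept and 241 lost. The cause of these changes was not tested.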
